A study of Macaca mulatta with 2 samples.

Results

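*RORA*, *IL23R*, *IL17RE* and *IL17A* are 4 genes associated with T helper 17 (Th17) cells, and they were chosen by name among the 35432 genes counted. They were measured in 1 untreated rhesus monkey aged 6 years, in T cells of the blood that carry both CD4 and CD8 (double positive, DP). Magnetic beads took the CD4+ cells and then the CD8+ cells among them. The same cells gave an RNA library read from the 5′ end of transcripts and a library of DNA-tagged antibodies against CD4 and CD8, the feature barcodes (FB). There was no second animal and no other condition, so no difference could be set against replicates and no p-value was computed. All ranges in brackets are exact 95% intervals that cover counting error only.

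Th17 cells are helper T cells of barrier tissues such as the gut and skin, and they are named for the cytokine that *IL17A* encodes, which acts on epithelial and stromal cells and brings in neutrophils. *RORA* encodes RORα, a nuclear receptor that takes part in the Th17 programme and is also found in other T cells and in innate lymphocytes. *IL23R* encodes a subunit of the receptor for a cytokine that maintains Th17 cells, and *IL17RE* encodes a receptor chain that works together with IL17RA. The chemokine receptor CCR6 is widely used to mark Th17 cells in blood. The study itself named *IL23R*, *IL17RE* and *IL17A* for a Th17-like set of these same cells, so a shared pattern with *CCR6* is not independent evidence of what the cells are.

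Each captured RNA molecule carries a unique molecular identifier (UMI), so copies of the same molecule were counted once. Of 7923 barcodes, none of them repeated, 7601 passed the filters of the study, and 7311 of these had a *CD3E* UMI and are called CD3E+ cells here. Their median was 3656 UMIs, with quartiles of 3001 and 4720. Markers of T cells (*CD3E*, *CD3D*, *CD3G* and *TRAC*) reached 3 or more UMIs in 98.8% of them. Monocyte markers did so in 0.0684%, B cell markers in 1.34% and NK cell markers, some of which cytotoxic T cells also express, in 8.69%. Against 86 cells with B cell genes and without CD3 genes, which served as a background for both tags, 49.1% of CD3E+ cells were above the 90th percentile for CD4 and CD8 FB together. For the other CD3E+ cells the tags did not settle that they were double positive. All CD3E+ cells were read together below.

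In CD3E+ cells *RORA* had 3383 UMIs in 2492 cells, *IL17RE* 215 UMIs in 209 cells, *IL23R* 70 UMIs in 64 cells and *IL17A* 25 UMIs in 18 cells. These are levels of 112 CPM (UMIs of the gene per 1000000 gene UMIs, 109 to 116) for *RORA*, 7.14 CPM (6.22 to 8.16) for *IL17RE*, 2.32 CPM (1.81 to 2.94) for *IL23R* and 0.830 CPM (0.537 to 1.23) for *IL17A*. Most cells with a UMI held a single copy, as 1821 of the *RORA* cells, 203 of the *IL17RE* cells, 59 of the *IL23R* cells and 14 of the *IL17A* cells did. Those 86 B gene cells were no shallower (median 4137.5 UMIs) and held 1 *RORA* UMI, a level of 2.52 CPM (0.0638 to 14.0), so *RORA* in CD3E+ cells stood far above that background. The other 3 genes had 0 UMIs there, but 0 of 86 cells allows a share of up to 3.49%, which is more than the 2.86% of CD3E+ cells with *IL17RE*, the 0.875% with *IL23R* and the 0.246% with *IL17A*. For those genes the background was therefore not settled. Free RNA was not estimated, and its part in the values below was not tested. A cell without a UMI may still hold the transcript at this depth.

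The members lie on 4 chromosomes of the Mmul_10 genome. In the RefSeq annotation, *RORA* (ENSMMUG00000018192) spans chr7:36950664-37694373, *IL23R* (ENSMMUG00000000648) chr1:157171858-157255899 and *IL17A* (ENSMMUG00000007403) chr4:117346270-117349235, all on the minus strand, and *IL17RE* (ENSMMUG00000018281) spans chr2:141269321-141284003 on the plus strand. *RORA* overlaps 4 uncharacterised genes in that annotation, with which it may share reads. It has 2 annotated transcripts with 2 starts, *IL17RE* 6 transcripts with 4 starts, and *IL23R* and *IL17A* 1 transcript each. The 250 bases before the start of *IL17A* are shown, since it had the largest ratio of the members with *CCR6* below. Capitals mark the letters AGGTCA, the half-site that ROR proteins bind, and GGAAAA, the core of an NFAT site, on either strand. TTCNNNGAA for STAT proteins and TGANTCA for AP-1 were also searched and were not in this window.
IL17A, chr4:117349236-117349485, minus strand: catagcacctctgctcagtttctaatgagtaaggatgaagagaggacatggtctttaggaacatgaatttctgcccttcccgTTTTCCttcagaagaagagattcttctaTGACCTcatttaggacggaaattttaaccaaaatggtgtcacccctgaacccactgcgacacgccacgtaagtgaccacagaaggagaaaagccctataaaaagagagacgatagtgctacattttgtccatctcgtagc

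*IL17A* held 1 AGGTCA, 135 to 140 bases before its start, and 1 GGAAAA. The same window of *RORA* held none of the 4 motifs. The window of *CCR6*, which lies on chr4:3562138-3589217, held 1 AGGTCA and 2 TTCNNNGAA. Among 20787 promoters of protein-coding genes, windows of the same length held AGGTCA in 12.9%, GGAAAA in 20.4%, TTCNNNGAA in 5.98% and TGANTCA in 5.15%. A match is a run of letters and not a site of binding, and its absence says only that these letters are not in the window.

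The question of which CD3E+ cells carry these genes was read first against *CCR6*. All 4 genes were higher in the 557 CCR6+ cells than in the 6754 CCR6- cells, and 3 of them by more than 2-fold. *IL17A* had 22 of its 25 UMIs in CCR6+ cells, 6.98 CPM (4.37 to 10.6) against 0.111 CPM (0.0229 to 0.325), a log2 ratio of 5.97 (4.24 to 8.35). *IL23R* had 33 UMIs and 10.5 CPM (7.21 to 14.7) against 37 UMIs and 1.37 CPM (0.966 to 1.89), a log2 ratio of 2.93 (2.21 to 3.65). These intervals do not overlap for either gene. *IL17RE* stood at 14.9 CPM (11 to 19.8) against 6.23 CPM (5.32 to 7.25), a log2 ratio of 1.26 (0.76 to 1.73). *RORA* stood at 151 CPM (138 to 166) against 108 CPM (104 to 112), a log2 ratio of 0.49 (0.35 to 0.63), which is well under 2-fold.

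The 3 members past 2-fold stand against 3.8% of 11259 tested genes that were 2-fold higher in CCR6+ cells, and the count of 0 lower members against 5.2% that were 2-fold lower. CCR6+ cells were deeper, with a median of 4937 UMIs against 3582. After each cell was thinned to 2000 UMIs, with 376 shallower CD3E+ cells left out, 26.2% of CCR6+ and 18.5% of CCR6- cells had a *RORA* UMI. *IL17RE* was then found in 2.78% (1.57 to 4.55) against 1.31% (1.05 to 1.62), and *IL23R* in 2.04% (1.02 to 3.62) against 0.172% (0.0859 to 0.308). Before thinning these shares were 8.26% against 2.41% for *IL17RE* and 5.21% against 0.518% for *IL23R*. *IL17A* kept 2 of 539 thinned CCR6+ cells and 3 of 6396 CCR6- cells, and its log2 ratio fell to 3.98 (1.42 to 6.76) on 7 UMIs in all. As shares of cells these were 0.371% (0.0450 to 1.33) and 0.0469% (0.00967 to 0.137), with intervals that overlap. The interval of the ratio counts UMIs as independent. The order held, but cells with *IL17A* were too few to settle its difference at equal depth.

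B cell markers moved with *CCR6*, which B cells also express. All 7 were detected in both groups, with a summed level of 165 CPM in CCR6+ and 68.5 CPM in CCR6- cells, and 3 or more UMIs in 21 of 557 and 77 of 6754 cells. Without those cells the log2 ratios were 0.55 for *RORA*, 2.86 for *IL23R*, 1.37 for *IL17RE* and 6.01 for *IL17A*, close to the values with them. Markers of innate lymphoid and mucosal-associated invariant T cells (*KIT*, *IL1R1*, *IL4I1* and *SLC4A10*) summed to 24.1 CPM against 3.82 CPM, with *KIT* at 0 in both groups. Of their 76 UMIs in CCR6+ cells 53 were *IL1R1*, and their part in the result was not tested.

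By CPM the levels also differed with the number of *CCR6* UMIs in a cell. *IL17A* stood at 0.111 CPM in cells with 0 *CCR6* UMIs, 3.87 CPM with 1, 10.6 CPM with 2 and 17.9 CPM with 3 or more. *IL17RE* stood at 6.23, 10.6, 22.6 and 23.8 CPM over the same 4 steps. *IL23R* stood at 1.37, 7.26, 18.6 and 11.9 CPM, and *RORA* at 108, 136, 197 and 140 CPM. Only 53 cells had 3 or more *CCR6* UMIs, and the intervals of the last steps overlap for every gene. The 178 cells with 2 or more *CCR6* UMIs nevertheless exceeded the 379 cells with 1 in all 4 genes, with log2 ratios of 0.39 (0.12 to 0.66) for *RORA*, 1.19 (0.12 to 2.28) for *IL23R*, 1.11 (0.23 to 2.01) for *IL17RE* and 1.73 (0.38 to 3.19) for *IL17A*. Depth rose over the 4 steps, with medians of 3582, 4707, 5065 and 5894 UMIs. After thinning 3 of 6396, 2 of 365, 0 of 121 and 0 of 53 cells kept an *IL17A* UMI. Its rise beyond 1 *CCR6* UMI was therefore not seen at equal depth. *RORA* was then found in 18.5%, 24.1%, 33.9% and 22.6% of cells, and *IL23R* in 0.172%, 1.64%, 3.31% and 1.89%. *IL17RE* was found in 1.31%, 2.19%, 4.13% and 3.77%.

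**Figure D1:**
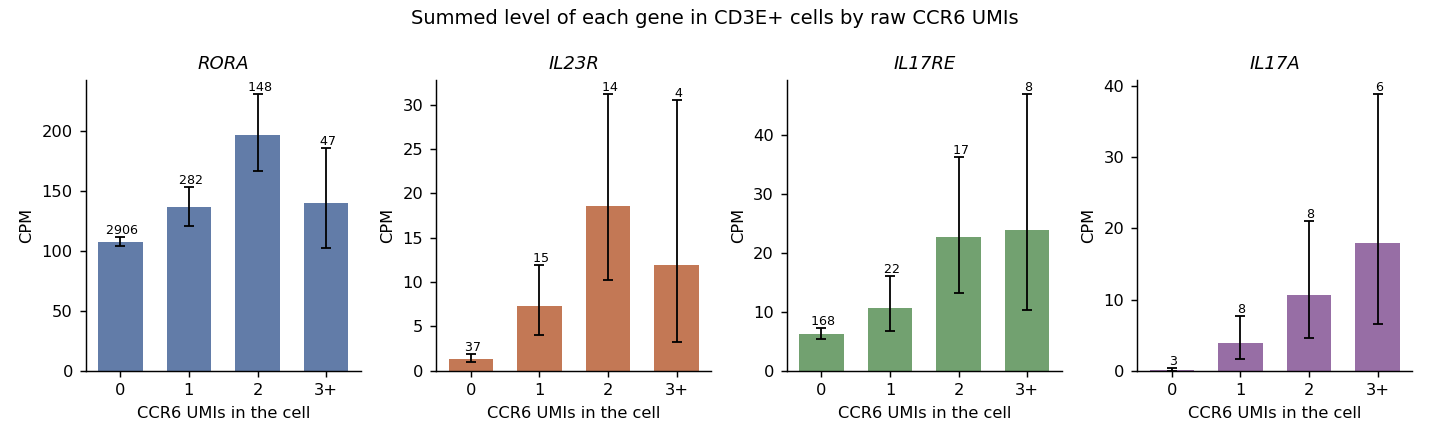
Level of each gene in CPM (y axis, separate scale per gene) in CD3E+ cells with 0, 1, 2 or 3 and more raw *CCR6* UMIs (x axis). Bars are summed levels, error bars exact 95% Poisson intervals and the numbers above them UMIs. *IL17A* rises at each step from 0.111 to 17.9 CPM, whereas *RORA* and *IL23R* are highest in the cells with 2 *CCR6* UMIs. After thinning, 0 of 121 cells with 2 and 0 of 53 cells with 3 or more *CCR6* UMIs kept an *IL17A* UMI.

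Other genes of the Th17 programme were read from a list of 45, of which 43 had a symbol among the features and 34 reached 20 UMIs in CD3E+ cells. *AHR* and *NFKBIZ* were the 2 without a matching symbol. The list was chosen with earlier results of these data known, and the study named *ABCB1* for a CCR9+ set of these same cells. The counts from it are therefore not independent evidence. Of the 34, 6 were at least 2-fold higher in CCR6+ cells (17.6%) and none was 2-fold lower, beside 3.8% and 5.2% of all tested genes. The median log2 ratio was 0.30 against -0.01 over all tested genes. *IL1R1*, the signalling receptor for interleukin 1, had the greatest ratio of the 6, with 53 UMIs and 16.8 CPM (12.6 to 22.0) against 36 UMIs and 1.34 CPM (0.935 to 1.85). *PTPN13*, a tyrosine phosphatase, stood at 25.1 CPM against 6.01 CPM, and *ABCB1*, a drug efflux pump, at 2.85 CPM against 0.742 CPM on 29 UMIs. *CTSH*, the protease cathepsin H, stood at 89.4 CPM against 40.6 CPM. *IL18R1* and *IL18RAP*, both chains of the receptor for interleukin 18, were 2.08-fold and 2.17-fold higher. The list also passed 2-fold in splits by other genes read below. By *GZMB*, 8 of the 34 were lower (23.5%) and 4 higher (11.8%), beside 6.65% and 7.66% of tested genes. By *CCR7*, 6 were lower (17.6%) and 4 higher (11.8%), beside 5.85% and 4.38%. A share above that of all genes was therefore not particular to *CCR6*.

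The partners of the members were read from the same list, and whether they differed from the members was not tested. *IL12RB1*, which pairs with *IL23R*, stood at 27.9 CPM (22.4 to 34.4) against 16.3 CPM (14.8 to 17.9), a 1.71-fold ratio. *IL17RA*, which pairs with *IL17RE*, stood at 32.7 CPM (26.7 to 39.6) against 19.1 CPM (17.5 to 20.8), also a 1.71-fold ratio. The kinases *JAK2* and *TYK2* and the transcription factor *STAT3*, which act below the *IL23R* complex, had ratios of 1.11, 0.858 and 0.927, and their intervals all included 1. Among other cytokines that Th17 cells can make, *IL17F* had 7 UMIs, *IL22* 3 and *CSF2* 0 in all CD3E+ cells, and *IL17RC*, a receptor chain for *IL17A*, had 3. *TNF* and *LTA* were detected more widely, with 182 and 172 UMIs, at ratios of 1.69 and 1.32. With genes from 5 UMIs admitted, 10 of 39 passed 2-fold, the 4 added being *IL17F*, *IL26*, *CCL20* and *IL17RB*. The share of all genes past 2-fold at this floor was not computed. In CCR6+ cells *IL17F*, *CCL20* and *IL17RB* had 3, 2 and 3 UMIs, and the intervals of their log2 ratios included 0.

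*CCR9* guides T cells to the small intestine, and 479 cells had a UMI of it. *IL17A* was higher in CCR9+ cells, at 3.38 CPM (1.55 to 6.42) against 0.583 CPM (0.333 to 0.946), and *IL23R* stood at 4.51 CPM (2.33 to 7.88) against 2.11 CPM (1.60 to 2.73). These 2 members passed 2-fold upward and none downward, beside 3.63% and 7.49% of tested genes. *IL17RE* stood at 12 CPM (8.23 to 17.0) against 6.67 CPM (5.73 to 7.70), and *RORA* at 119 CPM (106 to 133) against 112 CPM (108 to 116). The 9 *IL17A* UMIs of CCR9+ cells were in only 5 cells, with 4 in 1 cell and 2 in another, and 1 of the 5 had 22 B cell gene UMIs. The interval counts UMIs as independent and does not cover this. All 9 were in the 95 cells that also had *CCR6*. Of the 384 CCR9+CCR6- cells 0 had an *IL17A* UMI, which allows a share of up to 0.781%. *RORA* likewise stood at 154 CPM in CCR9+CCR6+ cells and 109 CPM in CCR9+CCR6- cells, and among CCR6- cells *CCR9* made no detectable difference to it (log2 ratio 0.01, -0.19 to 0.21). *IL23R* did differ among CCR6- cells, at 3.93 CPM with *CCR9* and 1.16 CPM without, a log2 ratio of 1.76 (0.42 to 2.92) on 8 and 29 UMIs. With gate and members thinned, the *CCR9* log2 ratio of *IL17RE* was 0.16 (-1.74 to 1.57) on 4 and 96 UMIs, against 0.85 (0.26 to 1.40) on all UMIs, and that of *IL17A* was 5.16 (2.60 to 7.93) on 4 and 3 UMIs. These 4 *IL17A* UMIs were in at most 2 cells, since only 2 CCR6+ cells kept one. They were too few to settle the *IL17A* ratio at equal depth, and its interval counts UMIs as independent. B cell markers summed to 152 CPM in CCR9+ cells against 78.7 CPM in all CD3E+ cells, and without cells with 3 or more of their UMIs the log2 ratios were 1.14 for *IL23R*, 0.82 for *IL17RE* and 2.46 for *IL17A*. NK cell markers summed to 53.4 CPM against 172 CPM, with *NCAM1* at 0, and their part was not tested.

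*ZBTB16* encodes PLZF, the transcription factor of innate-like T cells, and 220 cells had a UMI of it. *IL23R* stood at 6.98 CPM (3.01 to 13.8) in them against 2.14 CPM (1.64 to 2.74), a log2 ratio of 1.71 (0.43 to 2.77). The 41 ZBTB16+CCR6+ cells held 3 of these 8 *IL23R* UMIs and the 179 ZBTB16+CCR6- cells the other 5, the latter at 5.68 CPM (1.85 to 13.3) against 1.23 CPM in cells with neither gene. *IL17RE* stood at 12.2 CPM (6.68 to 20.5) against 6.94 CPM (6.01 to 7.97), and *RORA* at 108 CPM against 113 CPM. *IL17A* had 0 UMIs in ZBTB16+ cells, and 0 of 220 cells allows up to 1.36%, so a difference from the 0.863 CPM elsewhere was not detectable at this depth. In the ratio of CPM, *IL23R* was thus the 1 member 2-fold higher and *IL17A*, by its 0, the 1 member counted as lower, beside 3.28% and 9.55% of tested genes. Markers of NK cells summed to 482 CPM in ZBTB16+ cells against 172 CPM in all CD3E+ cells, with *NCAM1* and *FCER1G* at 0 and 3 or more UMIs in 38.6% of cells, and their part in these values was not tested. B cell markers summed to 123 CPM against 78.7 CPM, and without cells with 3 or more of their UMIs the *IL23R* log2 ratio was 1.63 (0.26 to 2.77).

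*TRAV10* is a variable segment of the T cell receptor α chain, and 247 cells had a UMI of it. *RORA* was higher in these, at 140 CPM (119 to 164) against 111 CPM (107 to 115), a log2 ratio of 0.33 (0.09 to 0.56). *IL23R* had 0 UMIs against 70 UMIs and 2.41 CPM in the other cells, and 0 of 247 cells allows a share of up to 1.21% where the other cells had 0.906%, so a difference was not detectable at this depth. *IL17A* had 3 UMIs in 2 TRAV10+ cells, both of which had *CCR6*, and a log2 ratio of 1.84 (-0.55 to 3.57). *IL17RE* stood at 8.13 CPM (3.72 to 15.4) against 7.10 CPM (6.17 to 8.14). The count of members past 2-fold was 1 upward (*IL17A*) and 1 downward (*IL23R*), beside 3.06% and 10.6% of tested genes. Markers of NK cells summed to 759 CPM in TRAV10+ cells against 172 CPM in all CD3E+ cells, with *NCAM1* and *NCR1* at 0, and their part in the *RORA* value was not tested.

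*FOXP3*, the factor that defines regulatory T cells, had a UMI in 162 cells. *RORA* was lower in these, at 65.8 CPM (49.3 to 86.1) against 114 CPM (110 to 118), a log2 ratio of -0.79 (-1.21 to -0.40). Thinned to equal depth, 11.1% of FOXP3+ and 19.3% of FOXP3- cells had a *RORA* UMI. NK cell markers summed to 46.0 CPM in FOXP3+ cells against 172 CPM in all CD3E+ cells, with *NCR1* at 0. Markers of cycling cells summed to 85.7 CPM against 19.9 CPM, with all 4 detected. Of the 162 cells, 85 had a *CCR7* UMI and none of the other gate genes, while 29.6% of all CD3E+ cells had *CCR7*. In CCR7+ cells *RORA* was also low, at 81.9 CPM. The part of both marker sets and of *CCR7* in the level of *RORA* was not tested. In the 18 FOXP3+ cells that also had *CCR6* it stood at 130 CPM (76.9 to 205), against 52.5 CPM (36.6 to 73.1) in the 144 FOXP3+CCR6- cells. The log2 ratio was 1.30 (0.40 to 2.16) on 18 and 35 UMIs, and the CCR6+ cells were too few to compare at equal depth. Among FOXP3+ cells without *TRAV10* or *ZBTB16*, 17 of 155 kept a *RORA* UMI after thinning, and 14 of 139 without CCR6+ cells. *IL17A* had 0 UMIs in FOXP3+ cells, where 0 of 162 cells allows up to 1.85%, and *IL23R* and *IL17RE* had 2 and 5 UMIs, with intervals that held the level of the other cells. No member was 2-fold higher and 1, *IL17A* by its 0, counted as lower, beside 5.67% and 15.9% of tested genes.

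**Figure D2:**
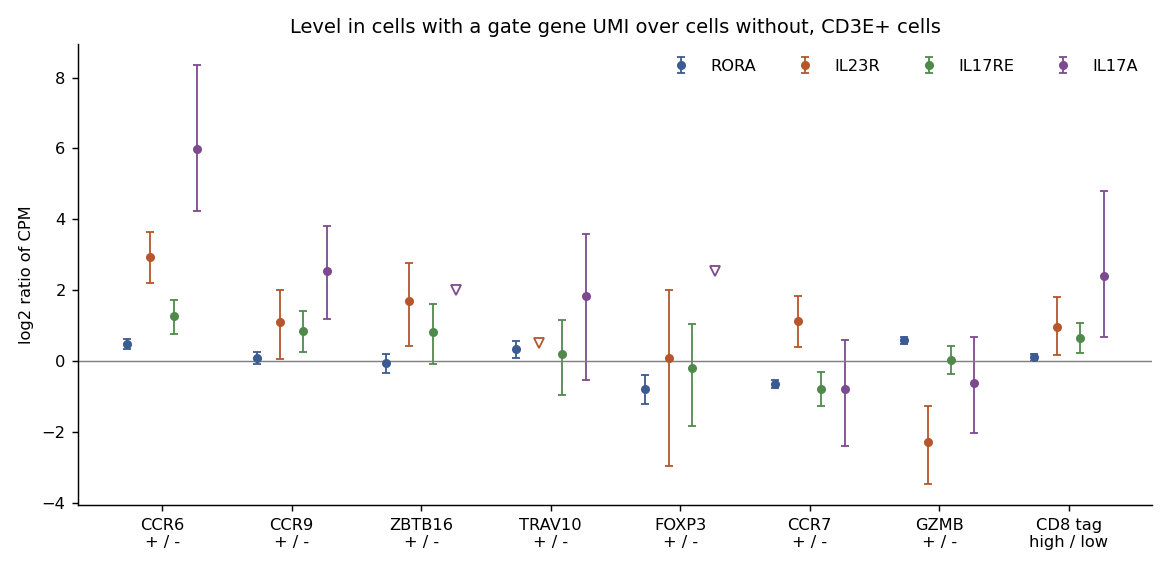
Log2 ratio of CPM (y axis) in CD3E+ cells with a UMI of each gate gene over cells without, or with high over low CD8 FB (x axis), for the 4 genes. Points are ratios of summed counts, error bars exact 95% intervals, and open triangles mark the upper end of that interval where the gene had 0 UMIs in the positive cells. All 4 intervals lie above 0 for *CCR6*, while for *GZMB* the interval of *RORA* lies above 0 and that of *IL23R* below it.

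*CCR7* and *GZMB* divided the cells in opposite ways. *CCR7* keeps naive and central memory cells circulating through lymph nodes, and granzyme B, the product of *GZMB*, is the protease of cytotoxic cells. *RORA* was lower in the 2163 CCR7+ cells, at 81.9 CPM (76.5 to 87.5) against 129 CPM (124 to 134), and higher in the 3273 GZMB+ cells, at 139 CPM (133 to 146) against 92.8 CPM (88.3 to 97.4). The log2 ratios were -0.66 (-0.77 to -0.54) and 0.59 (0.49 to 0.69). Over all tested genes the median log2 ratio was -0.14 for *CCR7* and 0.19 for *GZMB*, and relative to those medians the *RORA* ratios were -0.51 and 0.40, with the same directions. *RORA* did not rise steadily with the number of *GZMB* UMIs, since it stood at 123 CPM with 1 to 2, 155 CPM (143 to 168) with 3 to 9 and 135 CPM (126 to 144) with 10 or more.

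*IL23R* took the opposite course. It stood at 0.714 CPM (0.327 to 1.36) in GZMB+ cells against 3.48 CPM (2.66 to 4.48) in GZMB- cells, a log2 ratio of -2.29 (-3.48 to -1.27). In CCR7+ cells it stood at 3.57 CPM (2.52 to 4.90) against 1.64 CPM (1.12 to 2.32), a log2 ratio of 1.12 (0.40 to 1.84). That second difference was not detectable at equal depth. With *IL23R* thinned, 8 of 2087 CCR7+ cells (0.383%) and 14 of 4848 CCR7- cells (0.289%) had a UMI, with a log2 ratio of 0.58 (-0.81 to 1.89) on 9 and 14 UMIs, and with *CCR7* thinned as well only 2 and 21 UMIs were left and the ratio turned to -1.29 (-4.42 to 0.75). CCR7+ cells were deeper, with a median of 4377 UMIs against 3451. They also had more of the B cell markers, 134 CPM against 48.3 CPM with all 7 detected on both sides, and less of the NK cell markers, 71.1 CPM against 227 CPM. Without cells with 3 or more B cell gene UMIs the *CCR7* log2 ratios were -0.64 for *RORA* and 1.03 for *IL23R*, and the part of the NK cell markers was not tested. *IL23R* was the 1 member 2-fold higher in CCR7+ cells and the 1 member 2-fold lower in GZMB+ cells, beside 4.38% of tested genes higher and 5.85% lower for *CCR7* and 7.66% higher and 6.65% lower for *GZMB*.

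By CPM *IL17RE* was lower in CCR7+ cells, at 4.88 CPM (3.65 to 6.4) against 8.38 CPM (7.14 to 9.77), a log2 ratio of -0.78 (-1.26 to -0.32). With the members thinned to equal depth this ratio was smaller, at -0.37, and the difference was not settled. Among CCR6- cells the ratio was -0.55 (-1.08 to -0.04), and -0.07 with the members thinned, so a difference there was not settled at equal depth either. *IL17RE* was alike in GZMB+ and GZMB- cells, at 7.22 CPM and 7.08 CPM with a log2 ratio between -0.38 and 0.43. *IL17A* had 6 UMIs in CCR7+ and 8 in GZMB+ cells, and both ratios had intervals that included 0. Its *GZMB* ratio depended on the deepest cells, as the log2 ratio of -0.61 became -3.08 (-8.50 to -0.33) without the 5% of cells with most UMIs. Of the 86 B gene cells 7 had *GZMB* UMIs (8.14%), 263 in all. Markers of NK cells summed to 288 CPM in GZMB+ and 88.5 CPM in GZMB- cells, with 3 or more UMIs in 13% and 5.20% of cells. *NCAM1* was at 0 in GZMB+ cells, and the part of these markers in the *RORA* result was not tested.

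Splitting the CCR6+ cells by *CCR7* and *GZMB*, a split chosen after the values above were seen, set the members apart from each other. *IL17RE* stood at 22.8 CPM (16.2 to 31.2) in the 329 CCR6+CCR7- cells and at 5.55 CPM (2.39 to 10.9) in the 228 CCR6+CCR7+ cells, a log2 ratio of CCR7+ over CCR7- of -2.04 (-3.35 to -0.92). The CCR6+CCR7+ level of *IL17RE* was near the 4.78 CPM (3.47 to 6.41) of CCR6-CCR7+ cells, so its rise with *CCR6* was seen in CCR7- cells and was not detectable in CCR7+ cells (log2 ratio 0.22, -1.08 to 1.32). *IL17A* went the same way by CPM within CCR6+ cells, with 18 UMIs and 10.5 CPM (6.24 to 16.6) without *CCR7* and 4 UMIs and 2.77 CPM (0.756 to 7.10) with it. The 18 UMIs were in 12 cells, with 4 in 1 cell and 3 in another. Of the cells with *CCR7*, 1 had 22 B cell gene UMIs. The intervals count UMIs as independent and do not cover this. Only 2 CCR6+ cells kept an *IL17A* UMI after thinning, too few to compare. *IL23R* did not go this way, at 11.8 CPM (6.87 to 18.9) with *CCR7* and 9.36 CPM (5.35 to 15.2) without, from 17 and 16 UMIs. Its rise with *CCR6* was therefore present on both sides, with log2 ratios of 2.37 (1.36 to 3.36) in CCR7+ and 3.38 (2.28 to 4.47) in CCR7- cells.

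*RORA* behaved differently again. In CCR6- cells it stood at 140 CPM (133 to 147) with *GZMB* and 82.2 CPM (77.7 to 86.9) without, a log2 ratio of 0.76 (0.66 to 0.87). In CCR6+ cells it stood at 135 CPM (107 to 167) with *GZMB* and 155 CPM (140 to 171) without, a log2 ratio of -0.20 (-0.56 to 0.14) that turned to 0.46 (-0.72 to 1.45) when gates and *RORA* were thinned. The ratio of *RORA* between CCR6+ and CCR6- cells was accordingly 0.92 (0.75 to 1.08) on the log2 scale among GZMB- cells and -0.05 (-0.39 to 0.27) among GZMB+ cells. The level was thus similar in CCR6+ cells and in GZMB+ cells and was low in cells with neither. *IL23R* did not share this, since GZMB+CCR6- cells had 0.334 CPM (0.0909 to 0.854) and GZMB+CCR6+ cells 8.12 CPM (2.64 to 19.0). *IL17A* had 8 UMIs in the 75 GZMB+CCR6+ cells and 0 UMIs in the 3198 GZMB+CCR6- cells, which allows a share of up to 0.0938%. Those 8 UMIs were in 4 cells, the GZMB+CCR6+ cells were deeper with a median of 6831 UMIs against 3292.5, and after thinning 0 of 73 and 0 of 3026 cells kept an *IL17A* UMI and 1 in each group an *IL23R* UMI.

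**Figure D3:**
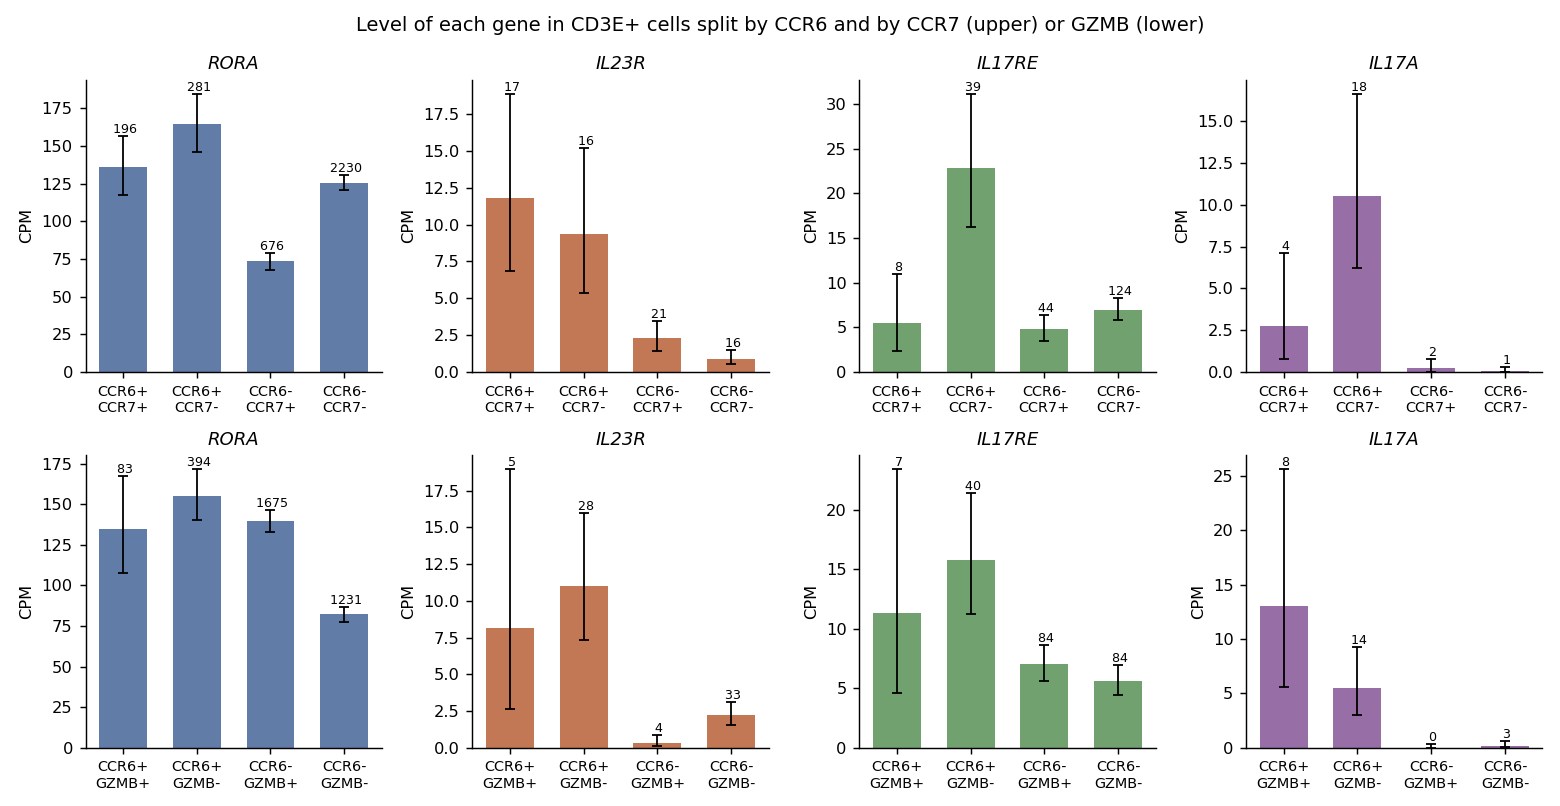
Levels in CPM (y axis, separate scale per panel) of the 4 genes in CD3E+ cells split by *CCR6* and by *CCR7* (upper panels) or *GZMB* (lower panels). Bars are summed levels, error bars exact 95% Poisson intervals and the numbers above them UMIs. In the upper panels *IL17RE* is highest in CCR6+CCR7- cells, at 22.8 CPM, and *RORA* is lowest in the CCR6-CCR7+ and CCR6-GZMB- cells.

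To give every cell a single place, the CD3E+ cells were put into 8 disjoint classes by asking in turn for *TRAV10*, *ZBTB16*, *FOXP3*, *CCR6*, *CCR9*, *GZMB* (from 3 UMIs) and *CCR7*, with the cells that had none of these last. The 487 cells of the CCR6 class held 76.0% of *IL17A*, 42.9% of *IL23R*, 17.2% of *IL17RE* and 12.2% of *RORA* UMIs. The 2590 cells of the GZMB class held 40.0% of *RORA* and 33.0% of *IL17RE* UMIs, 1 *IL23R* UMI and 0 *IL17A* UMIs. *RORA* stood at 156 CPM (141 to 171) in the CCR6 class, 141 CPM (134 to 149) in the GZMB class and 140 CPM (119 to 164) in the TRAV10 class, and neighbours in this order did not differ beyond counting error. The CCR9, unmarked and ZBTB16 classes followed at 109, 100.2 and 100.1 CPM. The CCR7 class at 67.7 CPM (61.5 to 74.4) and the FOXP3 class at 64.6 CPM (47.8 to 85.4) came last and did not differ from each other beyond counting error. Between neighbours, only the steps from TRAV10 to CCR9 (log2 ratio 0.37, 0.06 to 0.68) and from ZBTB16 to CCR7 (0.56, 0.20 to 0.91) had intervals without 0.

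*IL23R* was highest in the CCR6 class, at 11.3 CPM (7.60 to 16.1), and next in the 147 cells of the ZBTB16 class, at 10.0 CPM (4.32 to 19.7), with a log2 difference of 0.17 (-0.99 to 1.51) between them. The remaining classes ran from 3.19 CPM in the CCR9 class to 0.104 CPM (0.00264 to 0.582) in the GZMB class and 0 in the TRAV10 class. Between neighbours in this order only the step from the unmarked cells to the GZMB class had an interval without 0. *IL17RE* had the same leading classes by CPM, CCR6 at 13.9 CPM (9.79 to 19.2) and ZBTB16 at 13.8 CPM (6.87 to 24.6). It was lowest by CPM in the CCR7 class at 4.06 CPM (2.66 to 5.96), but this place did not hold at equal depth. After thinning, 1.28% of the CCR7 class had an *IL17RE* UMI, against 0.645% of the FOXP3 class and 0.587% of the unmarked cells. No neighbouring classes differed beyond counting error for *IL17RE*. It had UMIs in every class, though only 5 in the FOXP3 class. Its 0 UMIs in the B gene cells allow up to 9.29 CPM, so low class levels were not told from that background. *IL17A* stood at 7.14 CPM (4.30 to 11.1) in the CCR6 class and 2.71 CPM (0.559 to 7.92) in the TRAV10 class, had 2 UMIs in the CCR7 class and 1 in the unmarked cells, and 0 in the other 4. The 3 *IL17A* UMIs of the TRAV10 class passed to the CCR6 class when *CCR6* was asked for first, and *IL17RE* in the ZBTB16 class then fell to 6.84 CPM (1.86 to 17.5).

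**Figure D4:**
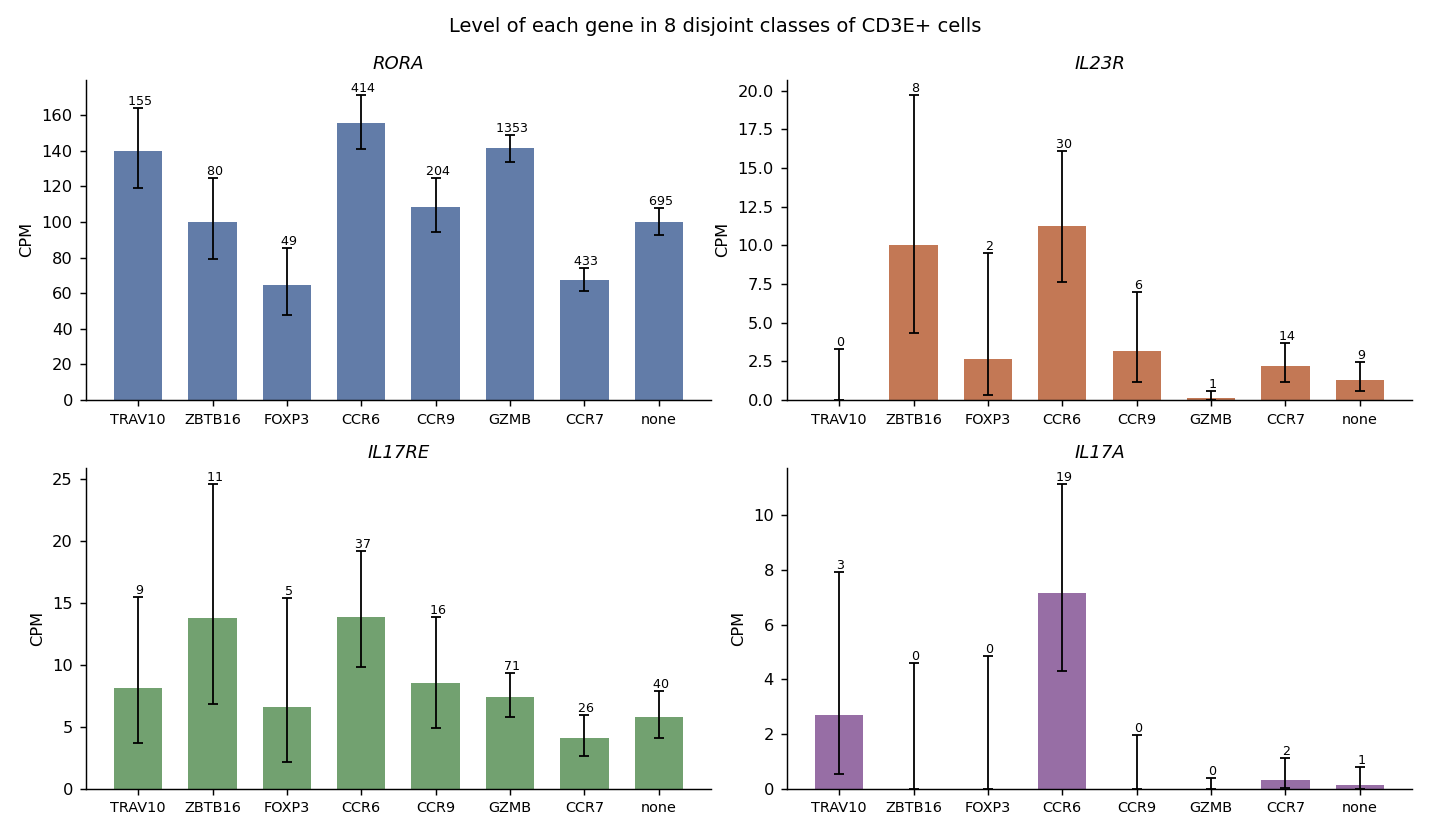
Level of each gene in CPM (y axis, separate scale per panel) in the 8 disjoint classes of CD3E+ cells (x axis). Bars are summed levels, error bars exact 95% Poisson intervals and the numbers above them UMIs. The CCR6 class has the highest bar in all 4 panels, and the GZMB class is high for *RORA* while it holds 1 UMI of *IL23R* and 0 of *IL17A*.

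By CD8 FB the members separated too. *IL17A* had 22 UMIs in the 3778 cells above the B gene level and 3 in the 3533 cells below, 1.26 CPM (0.790 to 1.91) against 0.237 CPM (0.0489 to 0.693), a log2 ratio of 2.41 (0.67 to 4.79). *IL23R* stood at 2.92 CPM (2.17 to 3.84) against 1.5 CPM (0.904 to 2.35) and *IL17RE* at 8.42 CPM (7.11 to 9.89) against 5.38 CPM (4.17 to 6.81). After thinning, 4 of 3646 cells above and 1 of 3289 cells below the level kept an *IL17A* UMI, too few to compare. *RORA* stood at 116 CPM (111 to 121) against 108 CPM (102 to 114), a log2 ratio of 0.10 (0.00 to 0.20). *IL17A* was the 1 member past 2-fold upward and none passed it downward, beside 2.12% and 0.764% of tested genes. CD8 FB rose with depth and with CD4 FB, since cells above the level had a median of 4008.5 UMIs and 428 CD4 tags and cells below it 3400 UMIs and 353 CD4 tags. B cell markers summed to 110 CPM above the level and 35.3 CPM below it, and without cells with 3 or more such UMIs the log2 ratios were 0.14 for *RORA*, 0.91 for *IL23R*, 0.67 for *IL17RE* and 2.41 for *IL17A*.

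In quartiles of CD8 FB from low to high, *IL17A* had 0, 3, 2 and 20 UMIs and *IL23R* 10, 9, 14 and 37. The highest quartile was deeper, with a median of 4594 UMIs against 3358 in the lowest. *IL23R* stood at 1.59, 1.33, 1.93 and 3.77 CPM. After thinning 0.241%, 0.173%, 0.400% and 0.449% of cells had an *IL23R* UMI, so its step into the highest quartile was not seen at equal depth. *IL17RE* stood at 4.92, 6.2, 8.29 and 8.37 CPM, and *RORA* at 94.2, 122, 124 and 108 CPM. *RORA* therefore turned within the range, and its highest quartile was no higher than the others together (log2 ratio -0.077, -0.18 to 0.03). The share of CCR6+ cells went from 3.94% in the lowest to 13.9% in the highest quartile. Among CCR6+ cells the highest quartile still held 18 of 22 *IL17A* UMIs, 10.4 CPM (6.16 to 16.4) against 2.82 CPM (0.767 to 7.21) in the other quartiles. Those cells were also deeper, with a median of 5524 UMIs against 4586, and 1 cell on each side kept an *IL17A* UMI after thinning. Within CCR6+ cells *IL23R* stood at 10.4 CPM and 10.6 CPM and *IL17RE* at 15.6 CPM and 14.1 CPM, with log2 ratios of -0.02 (-1.09 to 1.07) and 0.15 (-0.74 to 1.06). Among CCR6- cells *IL23R* stood at 2.35 CPM in the highest quartile and 0.953 CPM in the others. The log2 ratio was 1.31 (0.30 to 2.32) on 19 and 18 UMIs. After thinning its shares there were 0.196% (0.0404 to 0.571) and 0.165% (0.0710 to 0.324), with intervals that overlap. In CCR6- cells the log2 ratios of *IL17RE* and *RORA* were 0.19 (-0.30 to 0.67) and -0.14 (-0.26 to -0.02). In quartiles of CD4 FB *IL17A* had 0, 6, 3 and 16 UMIs, and by CD8 FB as a share of both tags the highest quartile had 11 UMIs against 14 in the others (log2 ratio 1.06, -0.22 to 2.31).

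The 18 IL17A+ cells were examined one at a time. The numbers of *IL17A* UMIs were 4 and 3 in the richest cells, 2 in each of 2 others and 1 in each of 14. Their median was 7464.5 UMIs, 17 lay above the median of CD3E+ cells and 8 were among the 5% of kept cells with most UMIs. A *CCR6* UMI was found in 15, a *RORA* UMI in 15, an *IL17RE* UMI in 4 and an *IL23R* UMI in 3, and 12 were CCR6+CCR7-. None had a *ZBTB16* or *FOXP3* UMI. CD8 FB was above the B gene level in 15 and in the highest quartile in 13, and CD4 FB was above its level in all 18. A cell with 22 B cell gene UMIs was among them, so it may have held RNA of more than 1 cell. Without the 5% of cells with most UMIs, 10 *IL17A* UMIs in CCR6+ and 3 in CCR6- cells were left, with a log2 ratio of 5.21 (3.25 to 7.71).

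**Figure D5:**
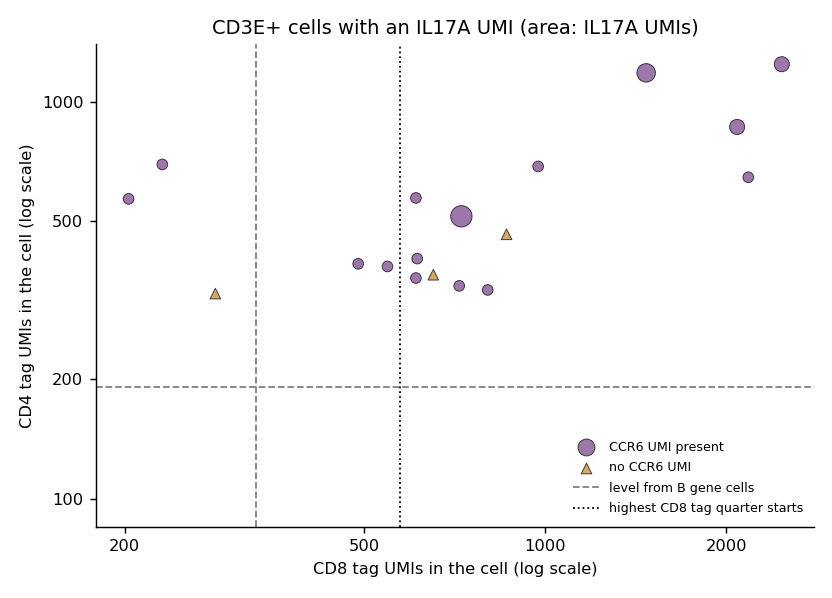
CD8 FB (x axis, log scale) and CD4 FB (y axis, log scale) UMIs of the 18 CD3E+ cells with an *IL17A* UMI, where the marker area stands for the number of *IL17A* UMIs in the cell and the shape for the presence of a *CCR6* UMI. Dashed lines are the levels from B gene cells and the dotted line is the start of the highest CD8 FB quartile, and 15 of the 18 cells lie to the right of the one for CD8, 13 of them in the highest quartile.

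The members were also compared in each other's cells by CPM, which divides by the summed UMIs of each group. These ratios were not recomputed at equal depth per cell. In the 2492 RORA+ cells *IL23R* stood at 4.41 CPM against 1.06 CPM in RORA- cells (log2 ratio 2.05, 1.28 to 2.88), *IL17A* at 1.94 CPM against 0.160 CPM (3.60, 1.87 to 5.99) and *IL17RE* at 9.0 CPM against 6.02 CPM (0.58, 0.18 to 0.98). In the 64 IL23R+ cells *IL17RE* stood at 28.0 CPM against 6.86 CPM (2.03, 1.01 to 2.90), with 10 cells holding both, and *IL17A* at 7.65 CPM against 0.740 CPM on 3 UMIs. *GZMB* was low in IL23R+ cells, at 189 CPM against 1254 CPM. *TRAV10* had 0 UMIs there, but only 3.38% of all CD3E+ cells had one, so a lower share was not detectable in 64 cells. *RORA* was found in 46 of the 64 IL23R+, 97 of the 209 IL17RE+ and 15 of the 18 IL17A+ cells. Cells with a UMI of any member were deeper than cells without, with medians of 3940 against 3539 for *RORA*, 5203 against 3644 for *IL23R* and 4402 against 3640 for *IL17RE*. For *IL17A* they were 7464.5 against 3653. The part of depth in these ratios was not tested.

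The 5 genes raised most in the cells with each member were then listed, by CPM + 10 relative to the cells without it. Only genes with 30 UMIs or more in the cells with the member were ranked. Genes that were lower in those cells were not listed. *CCR6* was on all 4 lists. For *RORA* they were *CCR6* (38.5 CPM against 19.8 CPM), *PERP*, *CCR9*, the receptor segment *TRAV30* and the transcription factor *CEBPD*, all with log2 ratios of at most 0.70, and with a pseudocount of 1 or 50 only 1 of the 5 stayed on the list. For *IL17RE* they were *GPX1*, a glutathione peroxidase, at 79.9 CPM against 24.8 CPM in 42 cells, the segment *TRBV6-1*, *CCR6* at 76.1 CPM against 25 CPM, *CCDC50* and *NR1D1*, a nuclear receptor of the circadian clock. *GPX1* was also on the *IL17A* list, at 349 CPM against 25.3 CPM in 11 of 18 cells, together with *CCR6* at 230 CPM against 25.9 CPM and *CLDND1* in 16 of 18 cells.

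Several of these genes came from a few cells. *CXCL13*, a chemokine that draws B cells, led both the *IL17A* and the *IL23R* list, but its 71 UMIs in IL17A+ cells were 37, 26 and 8 in 3 cells, and its 37 UMIs in IL23R+ cells came from 1 cell that had both members. All 35 *TRBV29-1* UMIs of IL17A+ cells came from 1 cell, and of 48 *IGHM* and 80 *EGR1* UMIs in IL23R+ cells 33 and 45 came from 1 cell each. *IGHM* and *CD79B*, which are B cell genes, belong to the *IL23R* list through 4 and 7 cells, and 4 of the 64 IL23R+ cells had 3 or more B cell gene UMIs. Without its richest cell *CCR6* kept a log2 ratio of 1.84 for *IL23R*, 1.22 for *IL17RE* and 2.55 for *IL17A*.

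*RORA* was also compared with other genes over the 10 combinations of gate genes that held 50 cells or more. Its level ran from 212 CPM (162 to 273) in cells with *TRAV10* and *GZMB* alone, through 157 CPM with *CCR6* alone, 145 CPM with *GZMB* alone and 93.6 CPM with none, to 68.5 CPM with *CCR7* alone and 45.4 CPM (26.4 to 72.6) with *FOXP3* and *CCR7*. Over these 10 points, which share a library, and among 4879 genes, the levels most like it were those of *SLC35E2* (Pearson r 0.95), *ACTR1B* (0.94), *BBS9* (0.93), *MTX2* (0.93) and *FAAP100* (0.92). The most unlike were *CA6*, a carbonic anhydrase (-0.97), *FOXP1*, a transcription factor of resting T cells (-0.96), and *IL6ST*, the shared signalling chain of interleukin 6 receptors (-0.94). These correlations are the extremes of many and describe these points only.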

How the data were processed

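The RNA and feature barcode libraries of the DP T cells were deposited by the authors as 1 matrix of unnormalized UMI counts, with genes and tags side by side. Per the submitters' processing notes, the authors used Cell Ranger 3.1.0 and STAR 2.5.1b on Mmul_10; the annotation release was not given in the sources used here. The filters stated by the study were applied: genes in 3 or more cells, 200 to 4000 genes per cell and at most 20% mitochondrial UMIs, which left 14459 genes in 7601 cells. A cell was positive for a gate gene from 1 UMI. UMIs were summed per group and given as CPM of all gene UMIs, with exact Poisson intervals. Ratios used the binomial split of both counts, shares exact Clopper-Pearson intervals, and a count of 0 the limit of 3 counts. Thinning drew 2000 UMIs per cell (seed 1). Genes with 20 UMIs or more in CD3E+ cells were tested against a 2-fold CPM ratio. Computation was tested on simulated data.

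Doublets were scored with Scrublet (scanpy 1.11.5) at an expected 6%. The threshold it chose put 1208 of 7601 cells among doublets, far more than expected, and no cell was removed. Alternatives left out the 5% with the highest scores, the 5% with most UMIs, and cells with B cell genes, or changed gates, filters, depth and pseudocounts. Splits of CCR6+ cells by *CCR7* and *GZMB*, centring on the median gene, and leaving out cells with 3 or more UMIs of a member were chosen after seeing the data.

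The members and lists were chosen with earlier results of these data known. Named genes were the members and the 7 gate genes, listed Th17 genes past 2-fold or in the same complexes, the 5 top genes of each member, and the 5 genes most and 3 least like *RORA*. Results for some genes and sequences are not reported here. Positions and promoters came from RefSeq for Mmul_10, matched by symbol (all 4 members). Work used Python 3.11.15, numpy 2.4.6, scipy 1.17.1, pandas 2.3.3 and matplotlib 3.10.9.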

Additional observations from a re-analysis of the deposited data

Results flagged for a closer look

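Some UMIs of the members lay outside the CD3E+ cells. The 290 kept cells without a *CD3E* UMI held 55 *RORA* UMIs, a level of 61.5 CPM (46.4 to 80.1), and 54 of these were in the 172 cells with under 3 B cell gene UMIs, at 167 CPM (126 to 218). The 322 barcodes left out by the filters held 158 *RORA* UMIs, 122 CPM (104 to 143), 5 *IL23R* UMIs, 3.87 CPM (1.26 to 9.04), and 8 *IL17RE* UMIs, 6.2 CPM (2.68 to 12.2). The B gene cells, for comparison, held 1 *RORA* UMI and 0 of *IL23R* and *IL17RE*.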

How the results depend on the processing

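No paired analysis was possible because there was 1 animal, with no test and no replicate numbers to pair. Of 600 values recomputed under an alternative, 563 stayed within the counting interval of the reported value (for counts of genes, within 1.5 times). Part of the 563 could not move, because the alternative left their cells unchanged, so this count overstates how stable the values were. Asking for *CCR6* first left the CCR9, GZMB, CCR7 and unmarked classes as they were. A lower *GZMB* limit left the classes asked for before it as they were, and a gate of 2 UMIs left the split by CD8 FB so. Of the rest, 35 moved beyond the interval, and 2 whose interval was clear of 0 changed sign. Ratios with an interval that included 0 also changed sign in places, as did that of *IL17A* by *CCR7*, from -0.79 to 0.78 with gate and gene thinned. With *CCR6* read as positive from 2 UMIs the log2 ratio of *RORA* was 0.74 and that of *IL17RE* 1.88. With the members thinned to equal depth the *CCR6* ratios were 0.64 for *RORA*, 3.69 for *IL23R* and 3.98 for *IL17A*, and with *CCR6* thinned too that of *IL17A* was 4.13. Without cells with 3 or more *RORA* UMIs, a filter on the compared value that lowers the higher group more, the *RORA* ratio was 0.27. The *CCR7* ratio of *RORA* was -0.77 as a mean over cells and -0.51 relative to the median gene, and that of *IL23R* reversed to -1.29 with gate and gene thinned. The *GZMB* ratio of *RORA* was 0.69 with both thinned and 0.40 relative to the median gene. The *RORA* ratio by CD8 FB reversed to -0.077 for the highest quartile over the others. The list of Th17 genes gave 10 in place of 6 past 2-fold from 5 UMIs, a floor at which no share over all genes was computed. The cause of these shifts was not tested. A gene with 0 UMIs in a group gave no ratio under an alternative. Counts under 30 UMIs set the precision of *IL17A*, and no interval covers differences between animals.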
